A study of Mus musculus with 4 samples.

Results

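Arg1 myeloid cells lacking C1q were 215 of the 2914 tumour cells that the authors' deposited cell table names MoMacDC, the myeloid cells other than neutrophils, out of 4440 CD45+ cells in all. A cell belonged to the set when it carried at least 3 unique molecular identifiers (UMIs, each 1 counted RNA molecule) of Arg1, fewer than 3 of C1qa, C1qb and C1qc together, fewer than 3 of the monocyte genes Ly6c2, Chil3 and Vcan together, and fewer than 3 of the mature dendritic cell genes Fscn1, Ccr7, Ccl22 and Cacnb3 together. The set therefore rests on measured counts, and the levels of these 11 genes describe the choice and are no finding. It held 37 of 1136 MoMacDC cells of the untreated tumour, 47 of 448 of the first anti-CD40 tumour and 131 of 1330 of the second.

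All animals were IL-12p40-IRES-EYFP mice, a strain whose interleukin-12 p40 gene also drives a fluorescent reporter, and all carried MC38 colon carcinoma cells in the flank that had grown for 7 days. The treated animals received 5 mg/kg of an agonist anti-CD40 antibody into the peritoneum, the other animal nothing, and tumours were taken 2 days later. CD45+ cells were sorted after staining with the dead-cell dye 7AAD, and their RNA was counted by the droplet method inDrops in 4 libraries per tumour. There was 1 untreated tumour and there were 2 treated ones, so that libraries and cells of a tumour are parts of 1 animal and not replicates. Library pools 1 and 2 each hold libraries of the untreated animal and of the first treated one, while pools 3 and 4 hold the second treated one alone, so that this tumour and its pools cannot be told apart. Age, sex and the relation of the animals are not analysed here.

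Arginase 1, the product of Arg1, splits arginine into ornithine and urea, and macrophages that express it lower the arginine available to T cells and feed proline and polyamine synthesis. C1q, the first component of the classical complement cascade, is made by mature tissue macrophages, while Ly6c2 and Chil3 mark inflammatory monocytes that have recently entered a tissue. In tumours, Arg1 is known to be raised in myeloid cells by low oxygen, lactate and type 2 cytokines, often beside Vegfa, the main growth factor of blood vessels, and Spp1, which encodes the matrix protein osteopontin.

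The members carried 19438, 42121 and 127305 UMIs (here and below in the order untreated, anti-CD40 tumour 1, anti-CD40 tumour 2), at a median of 399, 757 and 789 UMIs per cell. The remaining MoMacDC cells had medians of 427, 1115 and 949. No cell barcode was shared by 2 libraries. Cells with at least 3 UMIs of neutrophil, T, NK or B cell markers were 2.70%, 4.26% and 6.87% of the members (1, 2 and 9 cells), and 1.00%, 18.7% and 6.17% of the remaining cells.

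Arg1, at chr10:24915221-24927484 of GRCm38, had a median of 4, 7 and 6 UMIs per member, and at most 22, 29 and 34. Summed over members its level was 10574, 10126 and 8539 UMIs scaled to a total of 1000000 (CPM), and 2574, 725 and 2658 in the remaining cells. At the edge of the rule, 52 members held exactly 3 UMIs of Arg1, while 58 cells that met every other condition held 2. C1q UMIs were absent from 128 members and numbered 1 or 2 in 87, and another 116 cells that met the other conditions held 3 to 5. The 3 C1q genes summed to 1458, 432 and 634 CPM in the members, highest in the untreated tumour, whose cells also had the fewest UMIs.

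The markers Thbs1 and Vegfa were above the remaining level in both treated tumours, and in the untreated one neither differed beyond counting error. Each was above it in 11 of 12 libraries. Thbs1 (chr2:118111876-118127133), which encodes the matrix glycoprotein thrombospondin 1 and was named with Vegfa as a marker of these cells, stood at 625 CPM in untreated members, 5087 in tumour 1 and 3742 in tumour 2. In the remaining cells of those tumours it was 480, 873 and 1000. The ratio of members to remaining cells was therefore 5.83 and 3.74 after anti-CD40, but 1.30 in the untreated tumour, with a 95% counting interval of 0.664 to 2.31. Vegfa was at 521, 1128 and 951 CPM in members against 255, 189 and 521, ratios of 2.04, 5.95 and 1.83, the first with an interval of 0.959 to 3.87.

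To set detection at 1 depth, each cell was thinned to 300 UMIs and shallower cells were left out (8, 4 and 7 members, and 273, 25 and 60 remaining cells). A Thbs1 UMI was then present in 13.8%, 60.5% and 49.2% of the members (18.9%, 91.5% and 69.5% before thinning), against 9.93%, 14.9% and 16.1% of the remaining cells. In T cells, which should lack the gene, the shares were 1.61%, 0 of 47 cells (exact interval up to 7.55%) and 0.787%, at median depths of 475.5, 778 and 651 UMIs. Neutrophils carried Thbs1 too, in 39.0%, 57.7% and 65.0% of cells. Vegfa was present in 20.7%, 23.3% and 26.6% of thinned members, 7.51%, 6.91% and 12.4% of remaining cells, 14.6%, 8.10% and 14.0% of neutrophils, and 0 of 124 (up to 2.93%), 2.13% and 1.57% of T cells. The members' share lay above that of the neutrophils for Vegfa in each tumour, but for Thbs1 only in tumour 1. For Vegfa the exact intervals were apart only in tumour 1 (11.8% to 38.6% against 6.14% to 10.4%). For Thbs1 they overlapped in each tumour, in tumour 1 at 44.4% to 75.0% against 53.9% to 61.5%.

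Markers of other cell types were low in the members. All 12 epithelial genes listed for the tumour were at 0 UMIs, and so were 10 of 11 B cell markers, 9 of 10 mast cell and basophil markers and 4 of 14 T cell markers, among them Cd4 and Cd8a. Of the 18 neutrophil markers, Retnlg, Mmp9, Lcn2 and 5 others were at 0, and the list summed to 573, 1104 and 1419 CPM in members, 731, 3190 and 1663 in remaining cells and 48851, 133108 and 87163 in neutrophils. S100a8 gave 0, 6 and 34 UMIs. T cell markers summed to 9, 1 and 8 UMIs and NK cell markers to 4, 5 and 17. Of the macrophage markers, Csf1r (1250, 480 and 682 CPM) and Fcgr1 (781, 552 and 682) were detected, while Folr2, Cd163 and Lyve1 were at 0. Cd40 itself, the receptor that the antibody engages, gave 0, 0 and 3 UMIs in members and stood at 70.2, 102 and 90.2 CPM in the remaining cells. In the untreated tumour the counting interval of the Cd40 ratio was 0 to 2.88, so no difference was detectable there.

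The members made up 3.26% of the MoMacDC cells of the untreated tumour (95% exact Clopper-Pearson interval 2.30 to 4.46), 10.5% in anti-CD40 tumour 1 (7.81 to 13.7) and 9.85% in tumour 2 (8.30 to 11.6). All 8 libraries of treated tumours, at 8.13% to 15.0% in tumour 1 and 8.45% to 11.2% in tumour 2, lay above the 4 libraries of the untreated tumour, at 2.64% to 4.60%. The difference was also present between the tumours that shared a pool, with 3.00% against 8.33% in pool 1 and 3.58% against 12.1% in pool 2. Such intervals cover counting error only, and 1 tumour against 2 cannot give a small exact p-value, so no test was made across tumours.

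**Figure D1:**
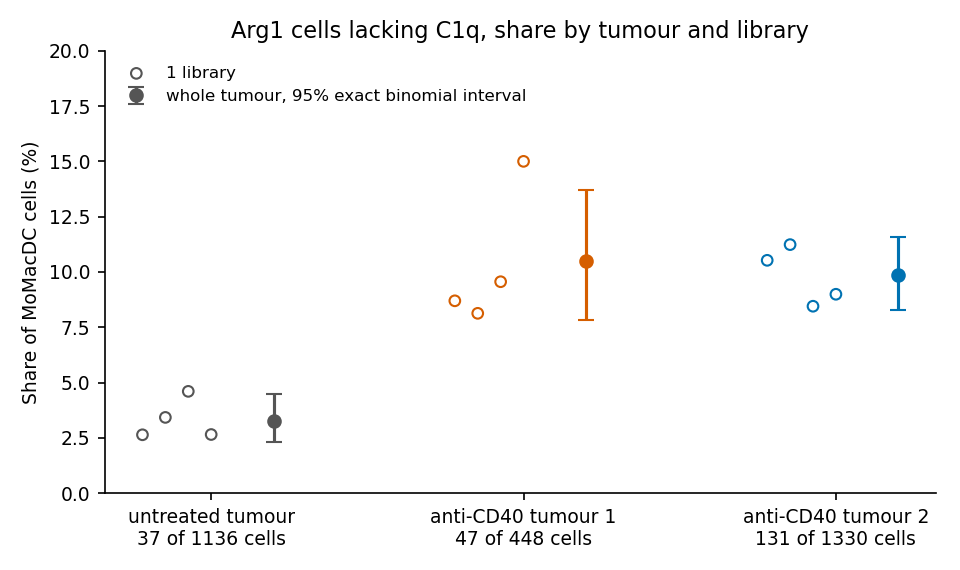
Share of MoMacDC cells (percent) that were Arg1 cells lacking C1q, by tumour. Open circles are single libraries, filled circles the whole tumour with its 95% exact binomial interval, and the lowest treated library (8.13%) lies above the highest untreated one (4.60%).

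The size of that difference moved with depth and with the thresholds. Members were 3.22 and 3.02 times as frequent in the treated tumours as in the untreated one. When cells were thinned to 300 UMIs before the rule was applied, the shares became 4.80%, 8.11% and 9.90%, and the folds 1.69 and 2.06. With a threshold of 5 Arg1 UMIs the folds were 6.16 and 5.43, with a threshold of 2 they were 1.77 and 1.74, and every alternative tried left both treated tumours above the untreated one.

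The 2 treated tumours reached a like share by different counts. Of MoMacDC cells with at least 3 Arg1 UMIs, whatever their other genes, members were 18.6% in the untreated tumour, 54.7% in tumour 1 and 28.0% in tumour 2. C1q cells with as much Arg1 numbered 154, 36 and 332. As a share of all CD45+ cells, of which neutrophils were a large part in tumour 1, members were 2.64%, 3.83% and 7.22%. The exact intervals were 1.87 to 3.63, 2.83 to 5.07 and 6.07 to 8.51, so on this base the untreated tumour and tumour 1 overlapped.

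Against the remaining MoMacDC cells, the members held more RNA of osteopontin, metallothioneins and heme oxygenase in all 3 tumours. Genes were counted where members and remaining cells together gave at least 30 UMIs in each tumour, and called higher or lower where the ratio was at least 2, or at most 0.5, in each. Of 2719 genes, 18 were higher (0.662%) and 72 lower (2.65%). A scarce gene could be counted through the remaining cells alone, and 71 of the 72 had 3 or fewer UMIs in the members of at least 1 tumour, so the number of lower genes reflects that minimum and is read no further. The cells were chosen by their own counts, so these are descriptions without a test. Only 1 of the 72 had a counting interval below 1 in all 3 tumours. Of the 18, 9 had an interval above 1 in all 3 tumours, namely Mt2, Parp10, Spp1, Phlda1, Mt1, Smox, Hmox1, Abca1 and Grina. These intervals cover counting error only. The 5 Mt2 UMIs of untreated members all came from 1 library, and Mt2 was above the remaining level in 9 of 12 libraries. With cells thinned to 300 UMIs 12 genes were higher, 4 of them among the 18.

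Spp1 (chr5:104435118-104441050), encoding osteopontin, separated the sets in every library. It stood at 1979, 1488 and 1086 CPM in the members, and at 456, 182 and 316 in the remaining cells, and was above them in 12 of 12 libraries. The ratios were 4.34 (3.00 to 6.12), 8.17 (5.85 to 11.3) and 3.43 (2.81 to 4.17). Its level in members was highest in the untreated tumour.

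Genes of heme, metal and oxidant defence were among the 18. Hmox1 (chr8:75093621-75100589), whose product breaks down heme, was at 1302, 2567 and 4717 CPM in members and 212, 725 and 1710 in remaining cells, ratios of 6.13, 3.54 and 2.76. The metallothionein genes Mt1 and Mt2, whose products bind zinc and copper, had ratios of 2.84, 5.55 and 3.11, and of 3.71, 9.77 and 7.68. Their sequences are alike, and how reads that match both were counted is not given. Prdx6, a peroxidase of oxidised phospholipids, was at 2.01, 3.28 and 2.61 times the remaining level. Over the 9 counted targets of NRF2, the factor that switches on antioxidant genes, only Hmox1 met the ratio rule, and the median log2 ratio was -0.27, near the -0.20 of all counted genes.

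Arginine and polyamine genes beside Arg1 were few. Nos2 (chr11:78920787-78960254), which encodes inducible nitric oxide synthase and draws on the same arginine as arginase, was at 208, 1152 and 1134 CPM against 59.1, 40.1 and 247. Its ratios were 3.53, 28.7 and 4.59, the first from 4 UMIs and with an interval of 0.906 to 9.94. Smox, the oxidase of the polyamine spermine, had ratios of 2.80, 8.16 and 3.06. Of 7 counted genes of the list, Nos2 alone was called, where 0.662% of all counted genes were higher. The abundant Oaz1 and Sat1 had ratios from 0.76 to 1.78.

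Hypoxia and glycolysis genes lay above the median of all counted genes, -0.20 on the log2 scale, as lists. Of 14 counted hypoxia genes, 10 were above 1 in all 3 tumours (11.8% of all counted genes were), none was below 1 in all, and the median log2 ratio was 1.06. Bnip3, which marks mitochondria for removal, Ndrg1 and the Myc antagonist Mxi1 met the ratio rule, where 0.662% of all counted genes were higher. Bnip3 was at 313, 624 and 817 CPM against 151, 72.9 and 323. The glucose transporter Slc2a1 had ratios of 1.74, 6.73 and 2.66, and the lipid droplet genes Hilpda and Plin2 had 1.70, 6.96 and 2.05, and 2.27, 2.61 and 1.74. All 14 counted glycolysis genes were above 1 in all 3 tumours, with a median log2 ratio of 0.88, although only the hexokinase Hk1 reached a ratio of 2 in each, from 3 UMIs in the untreated members. The summed glycolysis list was at 11251, 14996 and 15516 CPM in members and 6822, 6478 and 8822 in remaining cells.

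The remaining higher genes had varied roles. Mmp12 (chr9:7344381-7369499), the macrophage elastase, had ratios of 2.38, 24.4 and 8.86. Abca1, which exports cholesterol, had 2.82, 6.20 and 2.19. Nlrp3, the sensor of an inflammasome, had 2.17, 2.58 and 2.26. Phlda1 had 4.51, 5.39 and 3.42, Grina 2.01, 9.19 and 2.57, and Slfn4 2.23, 2.34 and 2.31. Parp10 had 4.59, 3.70 and 3.64, but its exons overlap those of Plec on the same strand, so its reads are uncertain, as are those of Spp1, which overlaps the annotated gene Gm42793 on the same strand. Exons of Mmp12, Mt2, Phlda1, Mxi1, Ndrg1, Hk1, Bnip3 and Thbs1 overlap an annotated gene on the other strand, whose reads cannot be told apart if counting ignored strand. Of 8 counted suppressive factors none met the rule, where 0.662% of all counted genes were higher. Of all counted genes 11.8% were above 1 in all 3 tumours, and of these 8 factors 4 were. These were Lgals3 (2.07, 2.68 and 1.97), the interleukin-1 antagonist Il1rn (1.83, 3.03 and 1.37), the prostaglandin synthase Ptgs2 (2.99, 3.98 and 1.55) and the checkpoint ligand Cd274 (2.69, 1.90 and 1.26). Tgfb1 was at 0.97, 0.88 and 1.08.

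**Figure D2:**
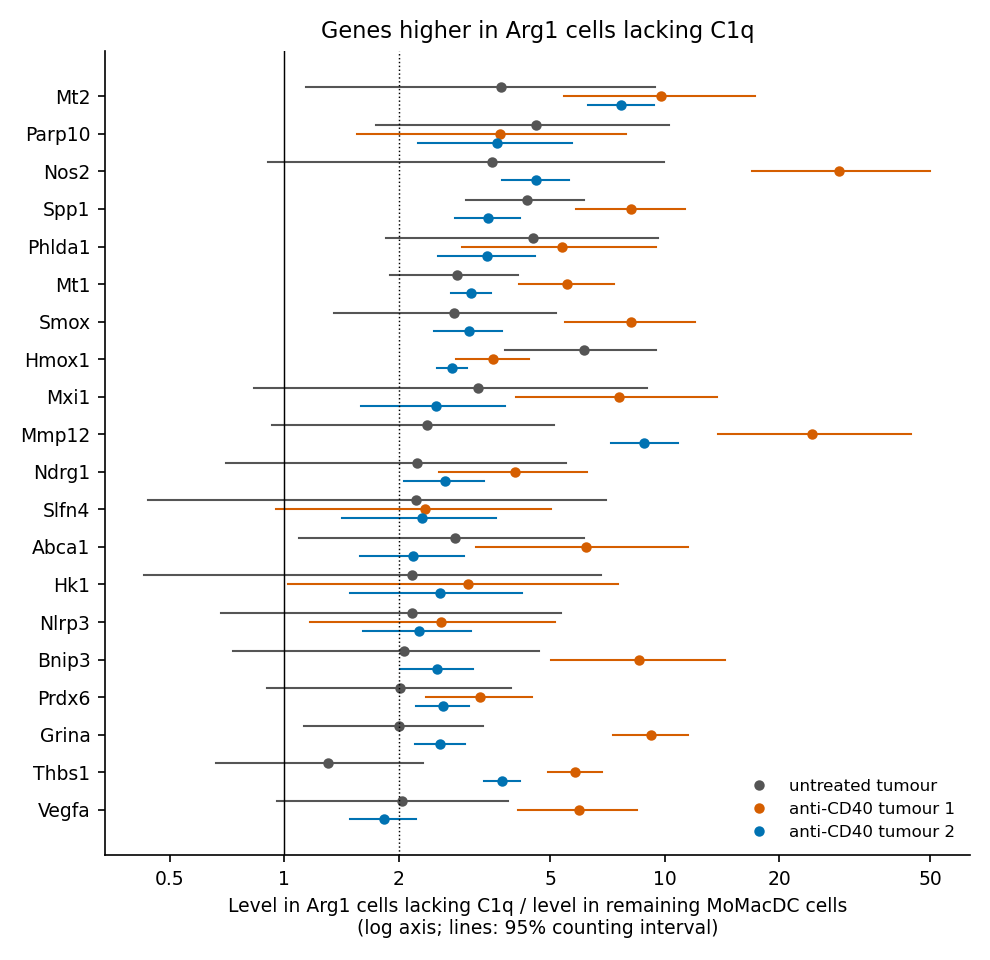
Ratio of the level in Arg1 cells lacking C1q to that in remaining MoMacDC cells (log axis) for the 18 genes called higher and for Thbs1 and Vegfa, 1 point per tumour with its 95% counting interval. The dotted line marks a ratio of 2, and the untreated intervals are the widest, reaching below 1 for Nos2, Mmp12, Bnip3 and Thbs1 among others.

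Because several of these genes are known to respond to low oxygen, promoter sequence was set beside them, with the letters ACGTG, the core that hypoxia-inducible factors bind, in capitals on either strand. The RefSeq promoter windows (GRCm38.p6, the 250 bases before the start) held 11 of the 18 higher genes. ACGTG occurred in at least 1 window of 5 of those 11 (Mt1, Mxi1, Abca1, Nlrp3 and Bnip3), and in 18.5% of all 27025 genes. By window it was 6 of 17, or 35.3%, against 16.6% of all 32851. Mt1 lies on the plus strand of chr8:94178839-94179088 and Bnip3 on the minus strand of chr7:138909507-138909756, both shown 5′ to 3′ along the gene. In Bnip3 the pair of overlapping matches forms CACGTG, which reads the same on both strands.
Mt1: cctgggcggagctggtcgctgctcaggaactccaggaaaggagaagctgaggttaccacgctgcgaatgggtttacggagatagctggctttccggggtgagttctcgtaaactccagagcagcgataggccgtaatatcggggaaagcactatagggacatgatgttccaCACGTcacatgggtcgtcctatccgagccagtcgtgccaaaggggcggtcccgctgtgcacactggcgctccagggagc
Bnip3: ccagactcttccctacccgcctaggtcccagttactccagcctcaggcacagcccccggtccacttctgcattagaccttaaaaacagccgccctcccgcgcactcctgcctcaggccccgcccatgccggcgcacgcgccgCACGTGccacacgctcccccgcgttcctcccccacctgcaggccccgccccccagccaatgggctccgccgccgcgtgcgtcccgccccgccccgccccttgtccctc
TGACTCA, the AP-1 site, was in 3 of the 17 windows (Mt2, Mmp12 and Slfn4), or 17.6%, and in 4.46% of all windows, and a consensus NF-kB site in 0 of the 17 and 0.140% of all. These are matches of letters in a window, not sites shown to be bound.

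The genes lower in members were mostly scarce. Of the 72, 51 had 0 UMIs in the members of at least 1 tumour, and 21 stayed at a ratio of 0.5 or less with 3 UMIs put in place of 0. Pou2f2, a transcription factor best known from B cells, gave 1, 2 and 2 UMIs in members and ratios of 0.187, 0.111 and 0.116. Lsp1, an actin-binding protein of leukocytes, had 0.292, 0.140 and 0.363, Bin2 0.277, 0.178 and 0.394, and the integrin Itgal 0.376, 0.0934 and 0.373. Mbnl1, Gusb, Akr1b3, Zfp706, Acp2 and Fbl completed the 10 lowest, with ratios from 0.206 to 0.432. None of these 10 had a counting interval below 1 in all 3 tumours. Among better counted genes, Cst3, which is high in dendritic cells, was at 1927, 1032 and 1189 CPM against 3956, 3561 and 2539, ratios of 0.487, 0.290 and 0.468.

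Antigen presentation genes differed between tumours. The summed MHC class II list was at 17502, 10030 and 12392 CPM in members and 27593, 8864 and 22565 in remaining cells, so members lay below in the untreated tumour and tumour 2 but not in tumour 1. Cd74, the invariant chain, followed the same order, with ratios of 0.718, 1.14 and 0.666. Of the mitochondrial transcripts, 11 of 11 counted were below 1 in all 3 tumours, as were 28.1% of all counted genes, and none met the ratio rule. Their median log2 ratio was -0.40, against -0.20 over all genes. Of 17 counted NF-kB targets none was called, where 0.662% of all counted genes were higher and 2.65% lower. The neutrophil chemokine Cxcl2 had ratios of 4.46, 3.82 and 1.81.

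Against the 522 C1q cells that also held at least 3 Arg1 UMIs, few genes had enough UMIs to be counted and only Spp1 of 414 was called higher (0.242%) and 0 were lower. Spp1 was at 883, 446 and 528 CPM there, ratios of 2.24, 3.33 and 2.06. Thbs1 had ratios of 1.86, 1.36 and 1.92, Vegfa 1.33, 0.892 and 1.03, and Hmox1 3.41, 1.20 and 1.53.

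More genes were called against other sets. Against the 698 cells that met every condition but Arg1, 9 of 682 genes were higher (1.32%), namely Spp1, Hmox1, Mt1, Smox, Gpi1, Tmem189, Adssl1, Lgals3 and Plin2, and 12 were lower (1.76%). Against all 1676 C1q cells (3 or more UMIs of the C1q genes), 13 of 1351 were higher (0.962%) and 19 lower (1.41%). Against the 175 monocyte-gene cells (3 or more UMIs of Ly6c2, Chil3 and Vcan), Hmox1, Mt1 and Gapdh of 317 genes were higher (0.946%) and 7 were lower (2.21%), among them the monocyte gene Plac8 and the lysozyme gene Lyz2. The numbers of genes counted differ between these comparisons, so the calls cannot be ranked across them.

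**Figure D3:**
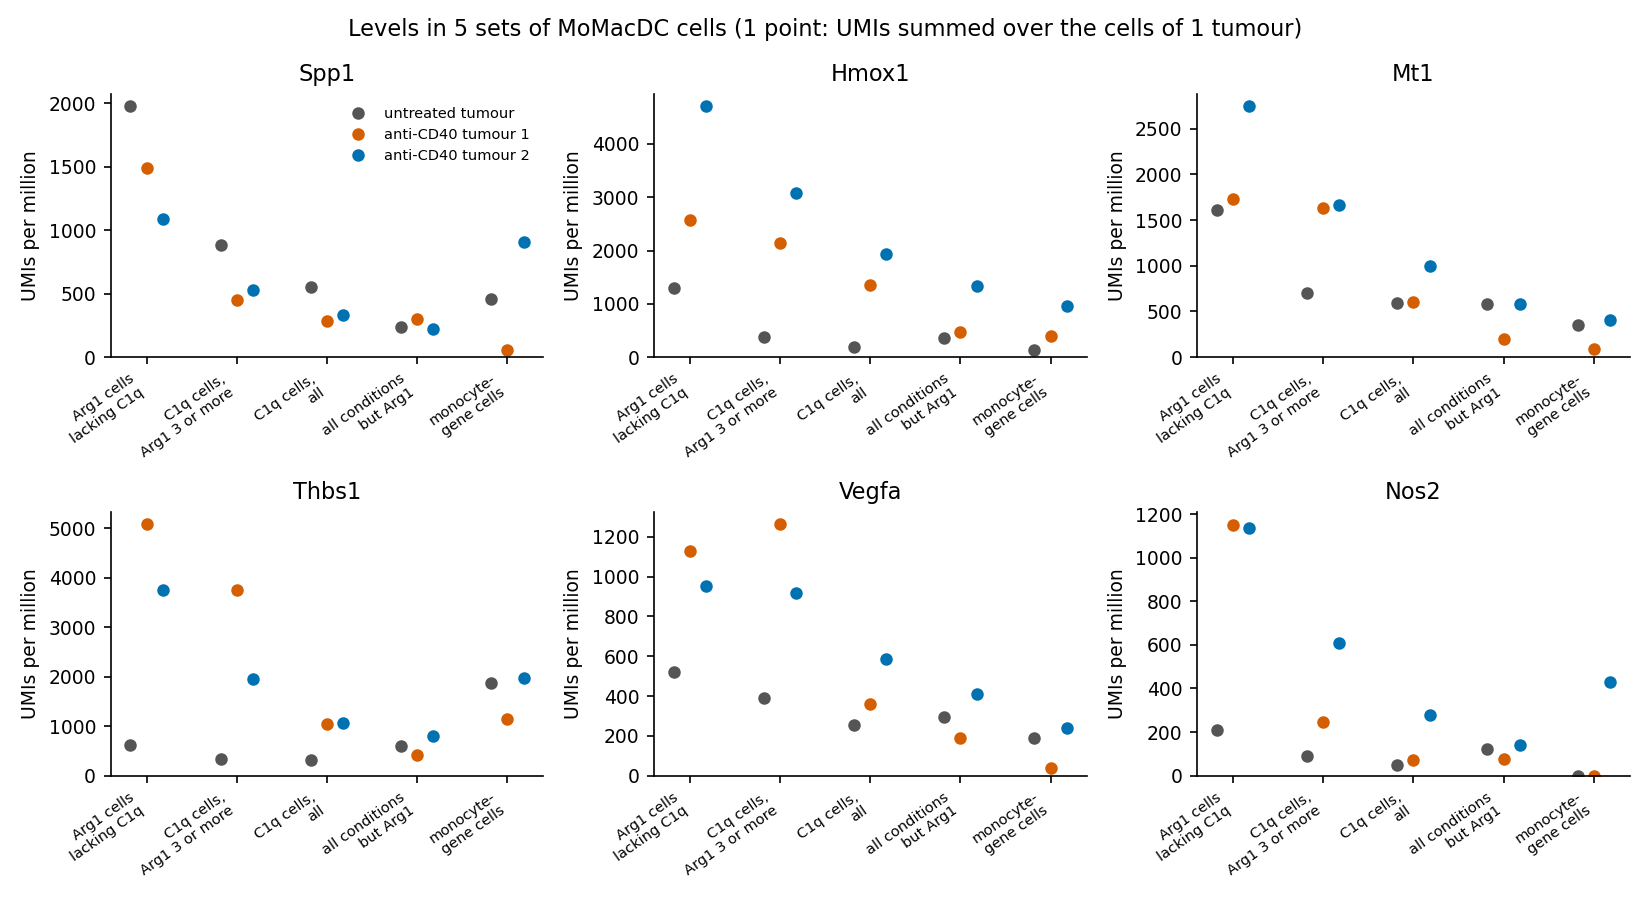
Level (CPM) of 6 genes in the Arg1 cells lacking C1q and in 4 other sets of MoMacDC cells, 1 point per tumour. Spp1 is above the C1q cells with Arg1 in each tumour (1979, 1488 and 1086 against 883, 446 and 528), while Vegfa is near them.

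Within the members, summed over the tumours, Thbs1 and Cxcl2 levels were ordered by Arg1, itself a gene of the rule. Thbs1 was at 492 CPM in cells that met the other conditions with no Arg1 UMI, 1264 in those with 2, 2075 in members with 3, 3168 in members with 4 or 5, and 4310 in members with 6 or more. Cxcl2 went from 2297 and 1896 outside the rule to 4517, 6242 and 7596 inside it. Spp1 had no such order among members, at 1923, 807 and 1213. Members with 6 or more Arg1 UMIs were also deeper, at a median of 987 UMIs against 496 for those with 3. The untreated tumour gave 12 of these 115 members and 15 of the 52 with 3 UMIs. It also gave 36 of the 58 outside cells with 2 UMIs and 235 of the 540 with no Arg1 UMI. By tumour, Thbs1 in members was at 625, 5087 and 3742 CPM. The part of depth and tumour in this order was not tested. Members with no C1q UMI and members with 1 or 2 were at 1564 and 742 CPM for Spp1, and 4030 and 3175 for Thbs1.

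After anti-CD40 the members held more RNA of thrombospondin 1, of ferritin and other antioxidant genes, of Cxcl2 and Cxcl3, which draw neutrophils, and of 3 of 13 tested hypoxia genes, and less of fibronectin and of the monocyte receptor Ccr2. Summed UMIs of 1 untreated and 2 treated tumours were compared by edgeR's quasi-likelihood test with Benjamini-Hochberg adjustment. Of 1005 genes, 44 rose (4.38%) and 4 fell (0.398%), and 193 had an unadjusted p below 0.05. All 44 were above the untreated level in both treated tumours, which the test on these same sums selects for. Scaling by plain library size in place of TMM gave 22 that rose and 12 that fell, so the split between directions depends on the scaling. The test had 1 residual degree of freedom, takes the lone untreated tumour to vary as the treated ones do, and cannot tell treatment from any other difference between that animal and the others. Its prior degrees of freedom were infinite, so the spread was shared across genes and taken as known. Each SE was worked back from the change and the test's F value. Neither the SE nor the p-value therefore measures a gene's own spread between animals.

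Thbs1 rose by 2.99 ± 0.47 on the log2 scale (SE; adjusted p = 1.46e-07 by edgeR's quasi-likelihood test), from 625 CPM to 5087 and 3742. Both treated values lay far above the untreated one, and the change within pool 1 and within pool 2, where only tumour 1 was available, was 2.98 and 3.04. It was 2.66 with cells thinned to 300 UMIs. Without pool 3 it was 2.95 with an edgeR adjusted p of 0.078, and no gene passed. Plaur, the urokinase receptor, gave 1, 36 and 100 UMIs, a ratio of summed levels of 15.6 with a counting interval of 2.75 to 619. Fn1, which encodes the matrix protein fibronectin and is counted in the same list, fell from 2084 to 720 and 563 CPM (log2 change -1.54 ± 0.41, edgeR adjusted p = 0.00940). Of the 12 matrix and wound genes tested, these 3 were the ones that passed. Of all genes tested, 4.38% rose and 0.398% fell.

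Of the antioxidant NRF2 targets, which include iron storage genes, 5 of 8 tested rose (4.38% of all genes tested did). Their median log2 change was 1.60, against 0.06 over all genes tested. Fth1 (chr19:9980598-9985098), the heavy chain of the iron store ferritin, was the most abundant gene of the members and went from 15054 to 37623 and 37605 CPM (1.51 ± 0.30, edgeR adjusted p = 0.000190). The light chain gene Ftl1 rose from 2865 to 6070 and 6533. Hmox1 rose from 1302 to 2567 and 4717 (1.70 ± 0.41, edgeR adjusted p = 0.00256). The thioredoxin gene Txn1, with 3, 42 and 104 UMIs, and the glutathione reductase gene Gsr, with 0, 12 and 34, were the other genes of the list that rose. Both ferritin genes have many processed copies in the genome, and how reads shared with copies were assigned is not given in the sources used here.

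Of 10 tested NF-kB targets, 4 rose (4.38% of all genes tested did), among them 2 chemokine genes. Of the separate list of other chemokines 0 of 6 tested passed. Cxcl2, whose product draws neutrophils, rose from 2396 to 6214 and 7699 CPM (1.73 ± 0.39, edgeR adjusted p = 0.00112). Cxcl3, its close relative, gave 0, 32 and 108 UMIs, at least 5.34-fold higher after treatment when 3 UMIs are put in place of 0. The NF-kB inhibitor gene Nfkbia and Ier3 were the others that rose. Il1b, the interleukin-1 beta gene, was at 3646, 4919 and 4694 and did not pass (0.58 ± 0.36, edgeR adjusted p = 0.376).

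Among hypoxia genes, 12 of 13 tested were higher in both treated tumours and 3 passed, with a median log2 change of 1.39, where 37.2% of all 1005 genes tested were higher in both and 4.38% rose. Hilpda rose from 469 to 2016 and 1919 CPM, and Slc2a1 from 260 to 1128 and 975. Ero1l, an oxidase of protein folding, was the third, with 2, 29 and 81 UMIs. Vegfa, at 521, 1128 and 951, did not pass (1.16 ± 0.52, edgeR adjusted p = 0.199). Of 12 glycolysis genes tested, Ldha, the lactate dehydrogenase subunit, alone rose, from 938 to 2039 and 2593.

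Other genes that rose stood for several functions. Nos2 rose from 208 to 1152 and 1134 CPM (2.63 ± 0.62, edgeR adjusted p = 0.00211), so that it was higher in treated members while the summed Arg1 level, a quantity the rule fixed in part, was 10574, 10126 and 8539. Mcl1, which protects cells from apoptosis, rose from 573 to 2207 and 2053, and Rgs1, a brake on chemokine receptor signalling, from 781 to 2423 and 3409. Cebpb, a transcription factor of myeloid differentiation, rose from 1094 to 3455 and 3132. Of 6 lipid handling genes tested, the cholesterol carrier Npc2, the cathepsin gene Ctsl and the fatty acid carrier Fabp5 (3, 23 and 189 UMIs) rose. Of all genes tested, 4.38% did. Clec4d, a receptor for fungal and mycobacterial sugars and lipids, had the smallest p of all and gave 1, 70 and 234 UMIs, a ratio of summed levels of 34.8 with a 95% counting interval of 6.20 to 1378.

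**Figure D4:**
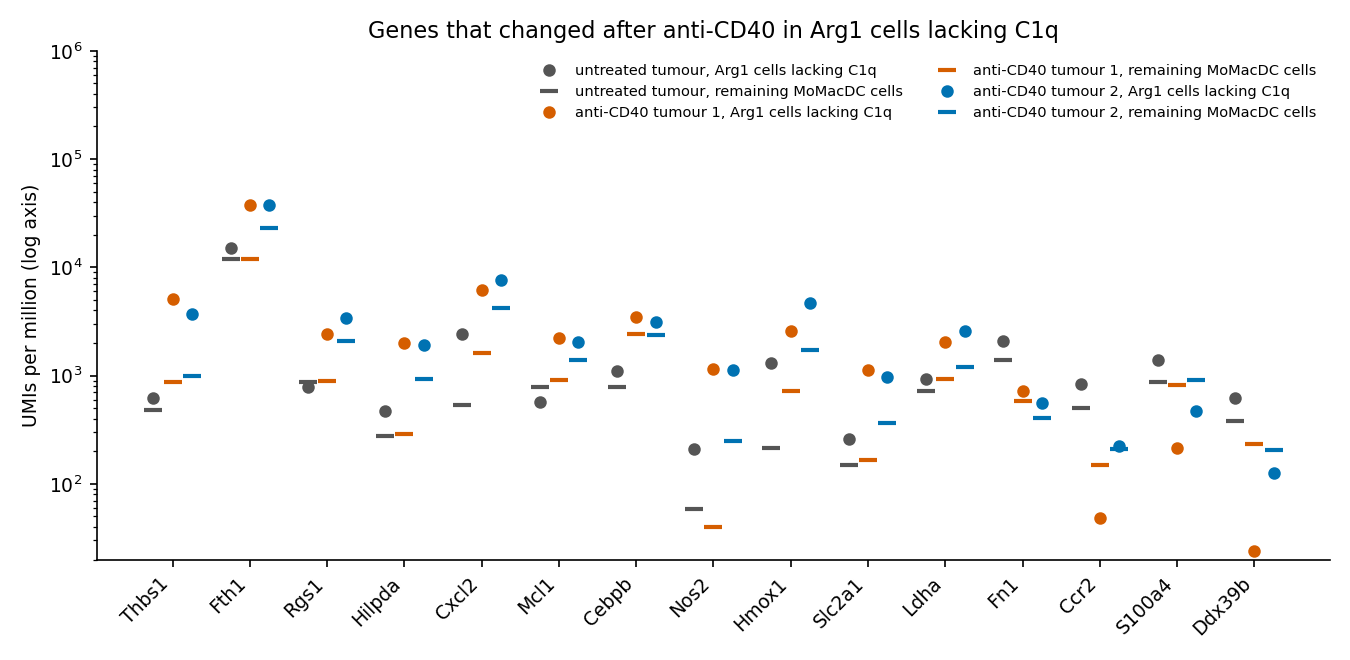
Level (CPM, log axis) of 15 genes that passed the test after anti-CD40 in the Arg1 cells lacking C1q. Circles are those cells, bars the remaining MoMacDC cells, and colours the 3 tumours, with Thbs1 at 625, 5087 and 3742 in the circles.

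The genes that fell, beside Fn1, were Ccr2, S100a4 and Ddx39b. Ccr2, the chemokine receptor by which monocytes enter tissue, was at 16 UMIs in untreated members, 2 in tumour 1 and 28 in tumour 2, or 833, 48.0 and 222 CPM (log2 change -2.12 ± 0.58, edgeR adjusted p = 0.0112). S100a4, a calcium-binding protein of motile cells, was at 1406, 216 and 476. Ddx39b, an RNA helicase, gave 12, 1 and 16 UMIs.

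Lists of interferon responses and of MHC class II gave no calls. Of all genes tested 4.38% rose and 0.398% fell, so 0 calls in lists of this size are read no further. Of 12 type I interferon genes tested 0 passed, at a median log2 change of -0.53, and of 12 interferon gamma genes 0 passed, at -0.32. Isg15 stood at 1354, 1008 and 714 CPM. The 6 tested MHC class II genes were lower in both treated tumours, as were 46.9% of all genes tested, and none passed, at a median of -0.62. Cd74 was at 5938, 3263 and 4472 and H2-Aa at 4948, 3239 and 3996. Under plain library size the median over all genes tested was -0.19 in place of 0.06, so lists near those values have no firm direction.

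Neutrophil markers were also higher beside these changes. The 5 tested were higher in both treated tumours, as were 37.2% of all genes tested, and none passed. Of the 44 genes that rose, 18 were higher in annotated neutrophils than in members in tumour 1 and 21 in tumour 2. The share over all genes tested was not worked out, so these counts are read no further. Among the genes higher in neutrophils of both were Thbs1, Clec4d, Hilpda, Plaur and Mcl1. So were the 4 NF-kB targets that rose, Cxcl2, Cxcl3, Nfkbia and Ier3. The members carried Thbs1 at 81.4% and 52.2% of the neutrophil level in the treated tumours, and S100a9 at 0.0541% and 0.879%. Hmox1, Nos2 and Fth1 were higher in members than in neutrophils of both. With cells carrying markers of a second cell type left out, 38 genes rose and 5 fell. The part of neutrophil RNA in the result was not tested.

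The remaining MoMacDC cells of the same 3 tumours were fitted in the same way. None of the 44 genes that rose in members passed there, although 42 of them changed in the same direction. The median log2 change over all 6989 genes of that fit was 0.03. The share of all genes with the same direction in both sets was not worked out, so the 42 are read no further. In that fit 0 genes rose and 1 fell of 6989, 505 had an unadjusted p below 0.05, and the spread between tumours was estimated less tightly, so the numbers of calls cannot be set against each other. The difference itself, tested as an interaction with the tumour as a block, passed for 6 of 6611 genes (0.0908%). In each case the change was more positive in members. For Apoe it was 0.23 in members and -0.95 in remaining cells on the log2 scale.

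Thbs1 had an interaction of 2.47 ± 0.55 on the log2 scale (edgeR adjusted p = 0.0251), against remaining cells at 480, 873 and 1000 CPM. Fth1 had 1.48 ± 0.35, where the remaining cells were at 12041, 11966 and 23280. Ifitm1, an interferon-induced membrane protein, gave 1, 23 and 107 UMIs in members and had 4.60 ± 1.08. The Mmp12 interaction was 3.10 ± 0.75. For Apoe (1.97 ± 0.44), which carries lipids, and the protease gene Lgmn (2.21 ± 0.52), the remaining cells were lowest in tumour 1, at 5941, 1029 and 4809 CPM for Apoe and 1797, 525 and 1854 for Lgmn.

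The remaining cells also differed in make-up between the tumours. C1q cells were 61.7%, 36.4% and 71.1% of them, and monocyte-gene or mature dendritic-gene cells 7.83%, 35.7% and 8.01%. The part of this make-up in the 6 interactions was not tested. None of the 6 passed under plain library size or with DESeq2, and the median interaction over all genes was 0.70 on the log2 scale under TMM and 0.10 under plain library size.

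**Figure D5:**
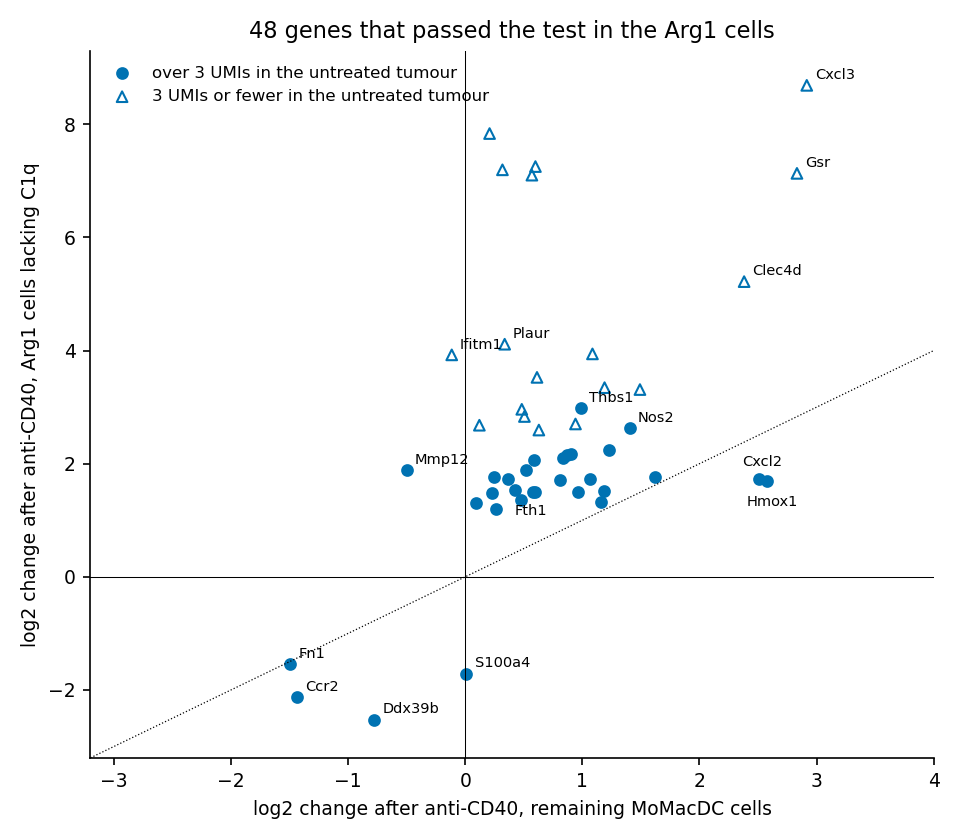
log2 change after anti-CD40 in the Arg1 cells lacking C1q (vertical axis) against that in the remaining MoMacDC cells (horizontal axis) for the 48 genes that passed in the former. Triangles are genes with 3 UMIs or fewer in untreated members, whose fitted changes are not bounds, and the dotted line marks equal change, with Hmox1 (1.70) and Cxcl2 (1.73) below it.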

How the data were processed

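Single-cell RNA sequencing of 4440 CD45+ cells in 12 libraries (4 pools) was read from the deposited tables, in which the authors give raw UMI counts per cell and gene for 22631 genes together with each cell's tumour, library and cell class. The submitters' processing notes name STAR, bcl2fastq and the GRCm38 build. Which counter, annotation, strand setting and cell filter were used, and whether doublets were removed, is not given in the sources used here. No doublet caller was run. The total of UMIs was 707889, 1391113 and 1862139 in the untreated tumour and anti-CD40 tumours 1 and 2.

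UMI counts were summed over the members, and over the remaining MoMacDC cells, of each tumour. Levels (CPM) are UMIs scaled to 1000000 of the sum without the 11 genes of the rule. Counting intervals are exact and cover 95%. Treatment was tested with edgeR 4.0.16 in R 4.3.3 (TMM, filterByExpr, glmQLFit with robust estimation, glmQLFTest, threshold 0.05 after Benjamini-Hochberg adjustment over all genes tested), and the interaction on 6 sums with the tumour as a block. In the fits of members and of the interaction the prior degrees of freedom were infinite, so the spread was taken as known, and in that of the remaining cells they were 6.30. Each SE is the absolute log2 change divided by the square root of the test's F value. Genes of the rule were left out of calls. DESeq2 1.42.0, other scalings and filters, thinning, other thresholds of the rule and leaving out pools, tumours or cells with second-type markers were alternatives. The procedures were tested on simulated data.

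Genes named are the 20 highest (18 existed) and 10 lowest against remaining cells, up to 12 per direction by p after treatment, the 4 most abundant of a list, Arg1, Thbs1, Vegfa and Cd40. Other names (Gsr, Ero1l, Ier3 and the like) were given after their values were seen. The members, the 31 gene lists and the tests were chosen with earlier results of these data known. Gene positions are from GENCODE M21 on GRCm38, promoter windows from RefSeq.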

Additional observations from a re-analysis of the deposited data

Results flagged for a closer look

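For 6 genes the effect of anti-CD40 differed between the Arg1 cells lacking C1q and the remaining MoMacDC cells by a test of the difference itself (edgeR quasi-likelihood interaction, Benjamini-Hochberg adjusted). The differences in log2 change were 1.97 for Apoe, 2.47 for Thbs1, 4.60 for Ifitm1, 2.21 for Lgmn, 1.48 for Fth1 and 3.10 for Mmp12. Each change was more positive in the Arg1 cells. For Apoe the log2 change was 0.23 in the Arg1 cells and -0.95 in the remaining cells. The Ifitm1 value rests on 1 UMI in untreated members. Relative to the median over all genes of 0.70, the Fth1 difference is the smallest of the 6.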

How the results depend on the processing

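One untreated tumour limits every comparison of treatment, and the 19438 UMIs of its members limit what could be called. No paired test was made, because only 1 tumour was untreated. It shared pools 1 and 2 with anti-CD40 tumour 1. Shares that moved beyond their counting interval were, in the untreated tumour, 4.80% with cells thinned to 300 UMIs first, 6.43% and 1.23% with 2 or 5 Arg1 UMIs, 1.67% and 5.72% with C1q at 0 or below 5, and 4.84% with thresholds per 1000 UMIs; in tumour 1, 7.59% with 5 Arg1 UMIs; and in tumour 2, 6.69% with 5 Arg1 UMIs and 5.56% and 12.9% with C1q at 0 or below 5. Genes higher than in remaining cells were 29, 6 and 9 with a minimum of 10 UMIs, of 100 UMIs, or against cells that met all conditions but Arg1, where 18, 6 and 4 were shared with the 18 reported. Thinning to 300 UMIs gave 12, of which 4 were shared. Genes lower were 314, 5 and 12 under the same 3 settings, 130 with 5 Arg1 UMIs and 12 after thinning. The median ratio of Zfp706 turned to 1.14 after thinning.

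After treatment, 44 rose and 4 fell. Plain library size gave 22 and 12, no filter 3 and 0 (286 with unadjusted p below 0.05), DESeq2 11 and 0 (64), and thinning to 300 UMIs 10 and 3. Leaving out pools 1, 2, 3 and 4 in turn gave 12, 19, 0 and 20 that rose and 0, 5, 0 and 1 that fell, and without pool 3, which holds libraries of anti-CD40 tumour 2 only, 146 had an unadjusted p below 0.05. The Thbs1 change ranged over 2.76 to 3.17 without a pool, with an adjusted p of 0.078 without pool 3. Genes that fell were 8 with 2 Arg1 UMIs and 1 with C1q at 0, where 37 rose. Of the 6 interactions, 0 passed under plain library size, no filter, DESeq2, without pool 2 or without pool 3 (222, 243, 36, 74 and 270 with unadjusted p below 0.05), 2 genes passed without pool 1, 1 of them among the 6, and 5 without pool 4, all among the 6. The causes were not tested.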
